A study of Mus musculus with 2 samples.

Results

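The genes described here are the proton-sensing receptors *Gpr4* and *Gpr65* and the acid-sensing ion channel subunits *Asic1*, *Asic2* and *Asic4*, 5 of the 28692 genes counted. They were taken by their symbols, and their transcripts were followed across the cell classes of the ventral parafacial region, the part of the brainstem surface that holds the retrotrapezoid nucleus. Single cells came from C57BL/6J mice aged 10 days, wild type in both libraries, and were captured with 10X v2 chemistry in 2 libraries. For each, cells of 8 mice of both sexes (4 males, 4 females) were pooled. The mice of the first had no treatment, and those of the second had received 4OH-tamoxifen (0.2 mg daily, 3 days). Per the study, the libraries took 2 lanes of a 10X chip, and each was sequenced on a lane of its own. Each condition had 1 library, so condition cannot be told apart from library or lane, and no test between conditions was possible.

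Cells were assigned to 10 classes by marker transcripts, none of them a member gene. The 4 neuron classes were gated on *Nmb* (neuromedin B, a peptide of retrotrapezoid neurons), *Slc17a6* (the vesicular glutamate transporter), *Slc32a1* (the vesicular GABA and glycine transporter) and *Chat* (the enzyme that makes acetylcholine). The 6 other classes were gated on *Aqp4* (astrocytes), *Pdgfra* (oligodendrocyte precursors), *Mog* (oligodendrocytes), *C1qa* (microglia), *Cldn5* (endothelium) and *Kcnj8* (pericytes).

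GPR4 and GPR65 are receptors on the cell surface that are switched on when the fluid outside becomes acid, and both are known to raise cyclic AMP through the G protein Gs. GPR4 is known from endothelium and, in this region, from the *Nmb* neurons of the retrotrapezoid nucleus, which raise breathing when CO2 rises, and GPR65 is known from immune cells. ASIC subunits assemble in groups of 3 into sodium-permeable channels that open on a drop in pH. ASIC1 subunits form such channels alone, ASIC2 subunits change their sensitivity, and ASIC4 is not known to give an acid-evoked current by itself.

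The untreated library held 3767 barcodes and 18496942 UMIs (unique molecular identifiers, each standing for 1 captured transcript), and the 4OH-tamoxifen library held 10241 barcodes and 34704167 UMIs. At the study's thresholds for genes, hemoglobin and mitochondrial UMIs 3345 and 9050 barcodes remained. Doublets were called anew here, which left 3339 and 8558 cells, with medians of 3628 and 2411 UMIs per cell, and 32 barcodes occurred in both libraries. Of these cells 7762 of 11897 (65.2%) met a gate. The neuron classes were small, with 22 untreated and 52 4OH-tamoxifen *Nmb* neurons, 18 and 68 *Slc17a6* neurons, 80 and 294 *Slc32a1* neurons and 19 and 83 *Chat* neurons. Of 26 marker genes that were not used in the gates, 25 were highest in their own class in both libraries. The exception was *Cspg4*, a marker of oligodendrocyte precursors, and the *Pdgfra* class of the untreated library also held the fibroblast transcript *Col1a1* at 282 CPM. In *Kcnj8* cells it was at 24.5 CPM in the untreated and 304 CPM in the 4OH-tamoxifen library. No independent marker was set for the *Slc17a6* class. It held the cholinergic transcripts *Slc5a7*, *Slc18a3* and *Isl1* at a summed 422 and 454 CPM, against 1880 and 2610 CPM in *Chat* neurons, and *Slc5a7* (the choline transporter) made up 401 and 325 CPM of this. Their part in the *Slc17a6* values was not tested.

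UMIs were summed per class and library and expressed as counts per 1000000 UMIs of that class (CPM), with exact Poisson 95% intervals that cover counting error only. Classes were compared by edgeR's quasi-likelihood test on the 20 summed profiles, with library as a block and Benjamini-Hochberg adjustment over all genes tested. The libraries stand as the 2 replicates although they differ in treatment, and the block takes out their overall difference. A p-value therefore measures only the spread that remains, the change of class levels between these 2 libraries. Its estimate is shared by all classes. All members except *Gpr65* had enough counts for this test.

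**Figure D1:**
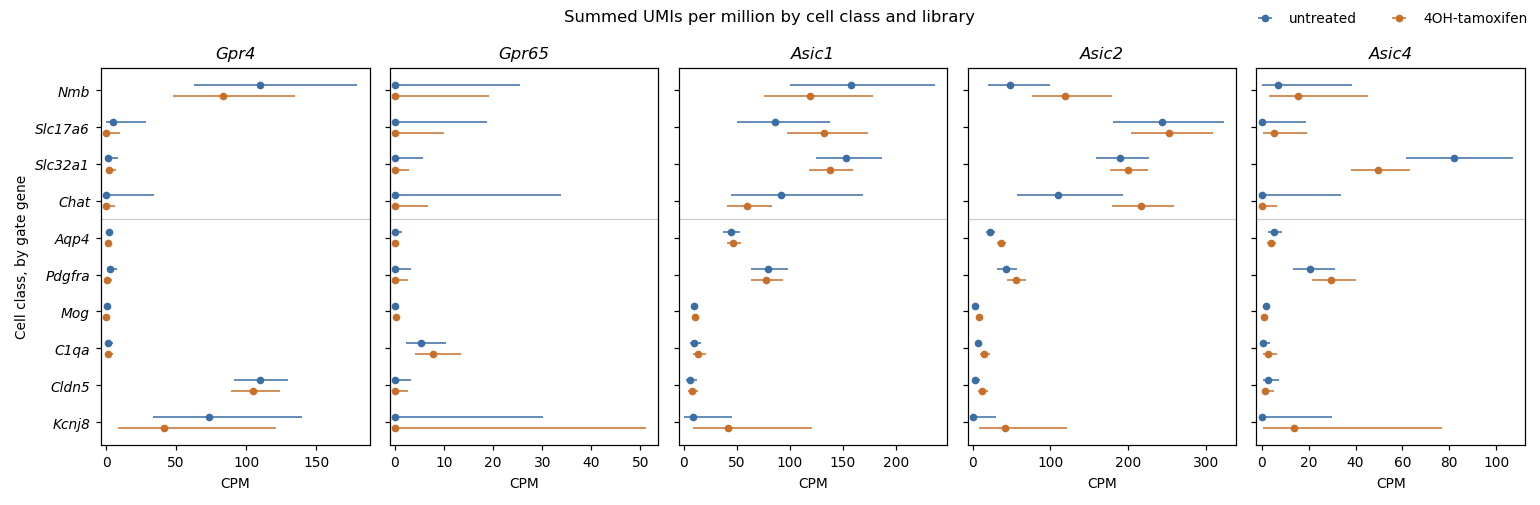
CPM of the 5 members (x axis, a scale of its own in each panel) in the 10 cell classes (y axis), with 1 point per library and exact Poisson 95% intervals as bars; the line separates the 4 neuron classes from the others. *Gpr4* lies at 41.5 CPM or more in *Nmb* neurons, *Cldn5* cells and *Kcnj8* cells and at or below 5.08 CPM elsewhere, *Gpr65* was counted almost only in *C1qa* cells, and *Asic4* is highest in *Slc32a1* neurons.

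*Gpr4* (ENSMUSG00000044317; GRCm38 chromosome 7, 19212538 to 19224174, plus strand) was high in 1 neuron class, in endothelium and, on few counts in the 4OH-tamoxifen library, in *Kcnj8* cells. In *Nmb* neurons it was at 110 CPM in the untreated library and 83.1 CPM in the 4OH-tamoxifen library, from 16 UMIs in each. Endothelial *Cldn5* cells had 110 and 105 CPM, from 128 and 151 UMIs. Both libraries therefore put *Nmb* neurons and endothelium in the same range. *Kcnj8* cells had 73.5 and 41.5 CPM, the latter from 3 UMIs. When Leiden clusters took the place of gates, they had 69.4 CPM (41.8 to 108) in the untreated library. In the 4OH-tamoxifen library they then had 13.6 CPM (2.81 to 39.8), again from 3 UMIs. In the other 7 classes no library exceeded 5.08 CPM, and *Chat* neurons had 0 UMIs in both. These zeros allow up to 27.6 CPM in the untreated and 5.41 CPM in the 4OH-tamoxifen library, and 4.52 CPM over both.

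The *Nmb* neurons exceeded the mean of the other 9 classes by 4.85 ± 0.466 on the log2 scale (edgeR, adjusted p = 2.36e-13). Here and below, the value after ± is an approximate SE. It was computed as the size of the difference divided by the square root of edgeR's F. Of the 4 members tested 2 were higher in this contrast, *Gpr4* and *Asic1*, against 10.8% of all genes tested. Because the *Chat* class was at 0, the fitted *Gpr4* difference and its SE depend on the prior count. Without that class the difference was 4.26 (adjusted p = 1.00e-12). There 3 of the 4 members were higher, against 12.3% of genes, since *Asic2* passed as well at 1.19 (adjusted p = 0.00963). *Gpr4* was also higher in *Cldn5* cells than in the mean of the other classes, by 5.61 ± 0.244 (adjusted p = 7.91e-31), a contrast in which it was the only member called higher against 29.6% of genes. Without the *Chat* class this was 5.04 (adjusted p = 4.24e-30, where 29% of genes were higher). In *Kcnj8* cells it was higher by 4.25 ± 0.684 (adjusted p = 1.72e-06), again the only member, against 7.62% of genes, and without the *Chat* class by 3.66 (adjusted p = 7.31e-06, where 7% were higher). Among neurons alone, *Nmb* neurons exceeded the mean of the other 3 neuron classes by 6.84 ± 0.681 (adjusted p = 5.00e-12), and without the *Chat* class by 5.43 (adjusted p = 1.64e-10), where 1.43% of genes were higher. Directly counted, *Gpr4* in *Nmb* neurons was 71 times that in *Slc32a1* neurons of the untreated library (11 to 2980) and 35.8 times in the 4OH-tamoxifen library (10.2 to 192). In counts over both libraries *Gpr4* was at least 20.9-fold higher in *Nmb* neurons than in *Chat* neurons, against a floor of 3 counts over both libraries.

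Ordered by mean CPM, the classes ran *Cldn5*, *Nmb*, *Kcnj8* and then *Slc17a6*. *Cldn5* and *Nmb* did not pass the edgeR test (adjusted p = 0.076), nor did *Nmb* and *Kcnj8* (adjusted p = 0.52). The step from *Kcnj8* to *Slc17a6* passed the test (adjusted p = 7.98e-05) and was the only one of the 9 neighbouring pairs to do so, where 33.9% of all genes tested over these pairs passed. When cells with more than 10% mitochondrial UMIs were left out, 3 untreated and 12 4OH-tamoxifen *Nmb* neurons remained, and the difference from the other 9 classes was 3.63 (adjusted p = 0.0749). From the 4OH-tamoxifen library alone that difference was 5.52, and from the untreated library alone 4.59.

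By cell, *Gpr4* was found in 12 of 22 untreated *Nmb* neurons (54.5%) and in 15 of 52 from the 4OH-tamoxifen library (28.8%), where the median depth was 3681 UMIs against 6547. Over both libraries 36.5% of *Nmb* neurons had it (Clopper-Pearson 95% interval 25.6 to 48.5), with 31.3% of *Cldn5* cells (27.6 to 35.2) and 13.8% of *Kcnj8* cells (7.07 to 23.3). Microglia, which served as the background, had it in 0.418% (0.114 to 1.07) at a median of 2806 UMIs against 4203.5 in *Nmb* neurons. After each cell was thinned to 2000 UMIs, the shares were 23.5% of *Nmb* neurons, 18.4% of *Cldn5* cells, 12.8% of *Kcnj8* cells and 0.393% of microglia. The *Nmb* neurons thus stayed above the background at equal depth, with 31.8% in the untreated and 19.6% in the other library. All 6 thinned *Kcnj8* cells with *Gpr4* were untreated (6 of 36 cells, 16.7%), and the 4OH-tamoxifen library had 0 of 11, for a limit of 27.3% on cells with a UMI at this depth and not on cells that express it. Unthinned, the *Kcnj8* shares were 20% and 5.71%. Most *Nmb* neurons with *Gpr4* had 1 UMI of it (23 of 27 cells) and the highest count was 3, whereas 18 *Cldn5* cells had 3 or more, up to 7.

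**Figure D2:**
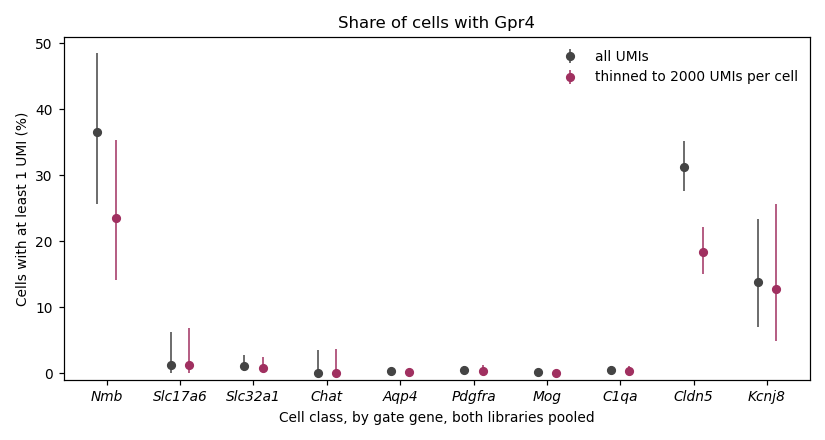
Percent of cells with at least 1 *Gpr4* UMI (y axis) in each class (x axis), both libraries pooled, with all UMIs and after thinning each cell to 2000 UMIs; bars are Clopper-Pearson 95% intervals. *Nmb* neurons (36.5%, thinned 23.5%) and *Cldn5* cells (31.3%, thinned 18.4%) stand above *Kcnj8* cells (13.8%, thinned 12.8%), and the 7 other classes lie near 0.

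Of the 352 *Gpr4* UMIs in gated cells, 279 were in the *Cldn5* class and 32 in *Nmb* neurons. Endothelial markers were nearly absent from the *Nmb* neurons, where *Flt1* (a VEGF receptor) had 0 UMIs in both libraries, *Pecam1* (an endothelial adhesion molecule) 0 and 1, and *Ly6c1* 0 and 3. In *Kcnj8* cells *Flt1* had 3 and 4 UMIs, *Pecam1* 0 and 1, and *Ly6c1* 1 and 0, beside 9 and 3 UMIs of *Gpr4*. The part of endothelial RNA, or of cells with *Col1a1*, in the *Kcnj8* value was not tested. Within the 74 *Nmb* neurons, *Kcnk5*, an acid-inhibited potassium channel, was found in 18.5% of the 27 cells with *Gpr4* and in 17% of those without. *Asic1* was found in 48.1% and 46.8%, and *Asic2* in 25.9% and 40.4%. These shares are descriptions of 1 set of cells of unequal depth.

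*Gpr65* (ENSMUSG00000021886; chromosome 12, 98268635 to 98276644, plus strand) was counted in the *C1qa* class and almost nowhere else. The *C1qa* class had 8 UMIs in the untreated library (5.26 CPM) and 12 in the 4OH-tamoxifen library (7.73 CPM). The only other gated UMI lay in the *Mog* class, and the remaining 8 classes had 0. In the 4OH-tamoxifen library the level in *C1qa* cells was 144 times that of the other 9 classes together (exact interval 21.4 to 6180), and over both libraries 189 times (30.3 to 7840), from 20 UMIs against 1. In the untreated library, where the others had 0, it was at least 18.2-fold higher, against a floor of 3 counts. *Gpr65* did not pass the filter on low counts and has no test. It was found in 1.88% of *C1qa* cells (1.12 to 2.96), against 0.054% of oligodendrocytes at a median of 6959 UMIs, and 17 of these 18 cells had 1 UMI.

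The depth limits what the zeros say. In *Nmb* neurons 0 UMIs allow up to 8.87 CPM of *Gpr65*, above the level of the *C1qa* class, and in *Kcnj8* cells up to 15.4 CPM. In astrocytes the limit was 0.44 CPM and in *Slc32a1* neurons 1.55 CPM, both below it. Within the *C1qa* class, 41 cells had 2 or more UMIs of *Mrc1*, a receptor of macrophages at the border of the brain, and *Gpr65* was at 34.7 CPM in them against 4.87 CPM in the 898 cells without *Mrc1*, a ratio of 7.12 (2.01 to 20.9). The untreated library alone gave 8.7 (1.35 to 44.7) and the 4OH-tamoxifen library 6.9 (0.725 to 33.3), from 3 and 2 UMIs in the cells with *Mrc1*. Both libraries pointed the same way, but the second interval holds 1. The lymphocyte markers *Cd3e* and *Nkg7* had 0 UMIs in the *C1qa* class. An exon of *Gpr65* overlaps the antisense gene *Gm47566*, and whether strand was used in counting is not given in the sources used here.

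The sequences just upstream of both receptor genes are shown because the transcripts of *Gpr4* and *Gpr65* lay in different classes. They are the 250 bases before the annotated start, plus strand, from RefSeq (GRCm38.p6), chr7:19212288-19212537 for *Gpr4* and chr12:98268385-98268634 for *Gpr65*. Capitals mark the letters AGGAAG, or CTTCCT on the opposite strand, which were searched as a motif of ETS factors. Shorter forms of such motifs were not searched.
Gpr4: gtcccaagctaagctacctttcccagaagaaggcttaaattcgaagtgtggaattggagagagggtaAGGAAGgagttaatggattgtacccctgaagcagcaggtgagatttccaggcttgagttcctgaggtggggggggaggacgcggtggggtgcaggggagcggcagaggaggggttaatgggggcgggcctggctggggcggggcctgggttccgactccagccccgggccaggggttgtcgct
Gpr65: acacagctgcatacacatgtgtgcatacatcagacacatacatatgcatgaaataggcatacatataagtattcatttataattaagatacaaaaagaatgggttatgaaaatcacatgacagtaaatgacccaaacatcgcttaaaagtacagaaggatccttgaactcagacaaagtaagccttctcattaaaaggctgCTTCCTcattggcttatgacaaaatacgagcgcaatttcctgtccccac
Each held 1 match, on either strand, and such a match was present in 29.5% of 32851 promoters of the same length. A match is a description of letters and not of binding.

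*Asic1* (ENSMUSG00000023017; chromosome 15, 99670368 to 99701130, plus strand) was found in all 10 classes and was highest in neurons. In *Nmb* neurons it was at 158 CPM (untreated) and 119 CPM (4OH-tamoxifen), with 153 and 138 CPM in *Slc32a1* neurons, and 86.4 and 132 CPM in *Slc17a6* neurons. *Chat* neurons had 91.9 and 59.5 CPM. Oligodendrocyte precursors, at 79.6 and 77.5 CPM, lay in the range of the *Chat* neurons, and astrocytes had 44.5 and 46.5 CPM. Oligodendrocytes had 9.75 and 10.4 CPM, microglia 9.87 and 13.5 CPM, and endothelium 5.99 and 7.68 CPM. *Kcnj8* cells had 1 and 3 UMIs (8.17 and 41.5 CPM).

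The 4 neuron classes exceeded the 6 other classes in *Asic1* by 2.03 ± 0.165 on the log2 scale (edgeR, adjusted p = 2.13e-17), and *Asic1* and *Asic2* were the 2 of 4 members tested that were higher there, against 26% of all genes. None of the 9 neighbouring pairs in the order of *Asic1* passed the test by edgeR, although 28.3% of all genes over these pairs did. Oligodendrocyte precursors were higher than oligodendrocytes by 2.36 ± 0.229 (adjusted p = 4.97e-14), and in this contrast 3 of the 4 members tested were higher, against 23.6% of genes. Among neurons, *Chat* neurons were lower than the mean of the other 3 classes in *Asic1* (log2 difference -1.06 ± 0.271, adjusted p = 0.00304), and *Asic1* and *Asic4* were the 2 members lower there, against 7.14% of genes. *Slc32a1* neurons were higher than the mean of the other 3 by 0.69 ± 0.196 (adjusted p = 0.0132). That call was lost with DESeq2's size factors (0.52, adjusted p = 0.107), without the *Chat* class (0.40, adjusted p = 0.285) and under other alternatives.

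*Asic2* (ENSMUSG00000020704; chromosome 11, 80880169 to 81968457, minus strand) was also neuronal, with a different order among the neuron classes. *Slc17a6* neurons had 244 and 252 CPM in the untreated and the 4OH-tamoxifen library, and *Slc32a1* neurons had 190 and 200 CPM. *Chat* neurons had 110 and 216 CPM, and *Nmb* neurons had the lowest level of the neuron classes in both libraries, 48.1 and 119 CPM, although untreated *Chat* neurons were lower still without 1 cell that held 9 of their 12 UMIs. With clustered neurons in place of gates, *Slc17a6* neurons had 117 and 187 CPM and no longer stood above *Slc32a1* neurons, at 200 and 200 CPM. *Chat* neurons then had 46.5 and 172 CPM, and *Nmb* neurons 42.8 and 145 CPM. By the gates, oligodendrocyte precursors had 42.5 and 55 CPM and astrocytes 22.4 and 36.1 CPM. The levels were 2.32 and 8.09 CPM in oligodendrocytes, 6.58 and 14.2 CPM in microglia, 3.42 and 11.9 CPM in endothelium, and 0 and 41.5 CPM in *Kcnj8* cells, the latter from 3 UMIs. The gene has 2 annotated starts, and the 3′ counts do not separate their transcripts.

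The neuron classes exceeded the other classes in *Asic2* by 3.02 ± 0.192 (adjusted p = 2.70e-22). From the untreated library alone the difference was 4.30, where *Kcnj8* cells had 0 UMIs and the fitted size depends on the prior count, and from the 4OH-tamoxifen library alone 2.70. *Nmb* neurons were lower than the mean of the other 3 neuron classes (log2 difference -1.28 ± 0.312, adjusted p = 0.0052), so that *Gpr4* and *Asic2* were the 2 of 4 members that passed in that contrast, in opposite directions, against 4.44% of all genes. The *Asic2* call was lost with DESeq2 (-1.26, adjusted p = 0.0929), without the library block (-1.28, adjusted p = 0.122), at most 10% mitochondrial UMIs (-1.08, adjusted p = 0.464), after thinning (-0.89, adjusted p = 0.425) and with clustered neurons in place of gates (-0.71, adjusted p = 0.16). *Slc17a6* neurons were at 0.73 ± 0.234 over the other 3 classes, which did not pass (adjusted p = 0.13). No neighbouring pair of the 9 in the order of *Asic2* passed by edgeR, where 22.5% of all genes over these pairs did. Precursors exceeded oligodendrocytes in *Asic2* by 2.54 ± 0.293 (adjusted p = 2.32e-11), and by 3.53 in the untreated library alone.

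Counts per cell were more uneven for *Asic2* than its sums show. Of 102 *Chat* neurons 62 had 0 UMIs of it, 14 had 1, 4 had 2 and 22 had 3 or more, up to 13. In the 4OH-tamoxifen library 21 of 83 *Chat* neurons (25.3%) had 3 or more UMIs and held 84.2% of the *Asic2* UMIs of the class, and in the untreated library 1 of 19 (5.26%) held 75%, without which the class had 35.2 CPM in place of 110. *Slc17a6* neurons had such cells in both libraries, 6 of 18 (33.3%) and 13 of 68 (19.1%), and these held 83.3% and 61.7% of the class's UMIs. The highest count in a cell was 18, and without that cell the untreated *Slc17a6* level went from 244 to 182 CPM. Among *Slc32a1* neurons 19 of 80 (23.8%) and 30 of 294 (10.2%) had 3 or more, with 70.7% and 44.4% of the UMIs. No *Nmb* neuron of 74 had more than 2. For *Asic1*, 3 of 102 *Chat* neurons, 6 of 86 *Slc17a6* neurons and 20 of 374 *Slc32a1* neurons reached 3 UMIs. Thinned to 2000 UMIs, *Asic2* was found in 30% of *Slc17a6*, 30.2% of *Slc32a1*, 22.4% of *Chat* and 19.1% of *Nmb* neurons, against 1.97% of microglia. Between the libraries the thinned share went from 4.55% (1 of 22 untreated cells) to 26.1% (12 of 46) in *Nmb* neurons and from 11.8% to 24.7% in *Chat* neurons. Unthinned, the pooled shares were 54.7%, 49.2%, 39.2%, 35.1% and 3.24%.

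**Figure D3:**
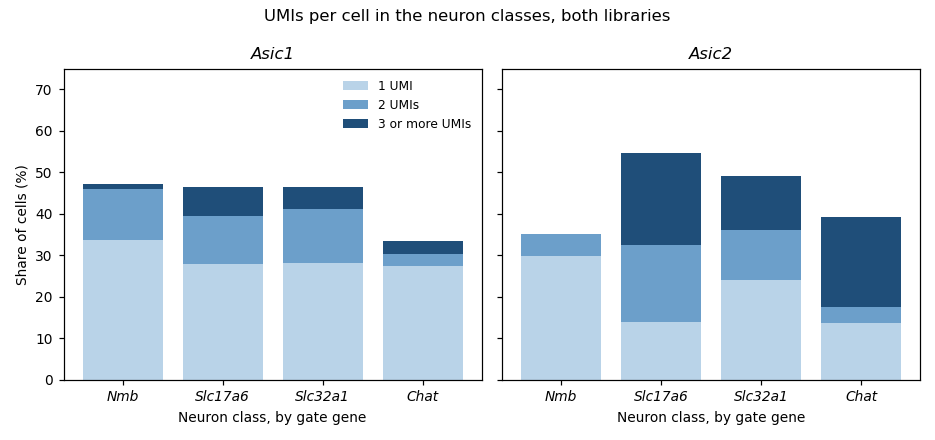
Share of cells (y axis, percent) with 1, 2 or at least 3 UMIs of *Asic1* (left) and *Asic2* (right) in the 4 neuron classes (x axis), both libraries pooled; cells with 0 UMIs make up the rest. Cells with 3 or more *Asic2* UMIs are 22 of 102 *Chat* neurons and 0 of 74 *Nmb* neurons.

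*Asic4* (ENSMUSG00000033007; chromosome 1, 75450436 to 75474343, plus strand) was concentrated in inhibitory neurons and oligodendrocyte precursors. *Slc32a1* neurons had 82.1 CPM in the untreated library (53 UMIs) and 49.5 CPM in the 4OH-tamoxifen library (64 UMIs). Oligodendrocyte precursors followed with 20.8 and 29.7 CPM. No library of the other classes exceeded the 15.6 CPM of 4OH-tamoxifen *Nmb* neurons, which came from 3 UMIs, and the *Slc32a1* neurons of both libraries lay above every other class. *Chat* neurons had 0 UMIs in both libraries, with the same limits of 27.6, 5.41 and 4.52 CPM as for *Gpr4*. An exon of *Asic4* overlaps *Gm37264* on the opposite strand.

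*Slc32a1* neurons exceeded the mean of the other 3 neuron classes in *Asic4* by 5.36 ± 0.616 (adjusted p = 5.42e-10), and without the *Chat* class, which was at 0, by 3.44 (adjusted p = 1.87e-06). *Asic1* and *Asic4* were the 2 of 4 members higher in this contrast, against 8.7% of all genes, or 5.08% when the *Chat* class was left out, where *Asic4* was the only member called higher. Directly counted, *Asic4* in *Slc32a1* neurons was 11.9 times that in *Nmb* neurons of the untreated library (2.05 to 480) and 3.18 times in the 4OH-tamoxifen library (1.04 to 15.8). Against *Chat* neurons it was at least 2.98-fold and 9.15-fold higher, on a floor of 3 counts per library. The step from *Slc32a1* neurons to precursors passed the test (adjusted p = 0.000939) and was the only one of the 9 neighbouring pairs to do so, where 36.9% of genes passed over these pairs. Precursors exceeded the mean of the other 9 classes by 2.91 ± 0.406 (adjusted p = 1.81e-08), with *Asic1* and *Asic4* the 2 members called higher against 22.6% of genes. From the untreated library alone it was 3.67, where *Chat*, *Slc17a6* and *Kcnj8* classes had 0 UMIs and the fitted size depends on the prior count. Without the *Chat* class this difference was 2.27 (adjusted p = 3.44e-07), where 21% of genes were higher. Precursors exceeded oligodendrocytes by 3.83 ± 0.44 (adjusted p = 2.52e-11), with 2.99 from the untreated and 4.38 from the 4OH-tamoxifen library alone. Neurons as a whole were not separated from the other classes (log2 difference -0.23 ± 0.51, adjusted p = 0.776). Without the *Chat* class this difference turned to 1.55 (adjusted p = 0.0365, where 25.7% of genes were higher). In summed counts, which weight each class by its UMIs where the fit weights the classes equally, neurons had 35.1 CPM and the other classes 4.16 CPM over both libraries, a ratio of 8.43 (6.5 to 10.9). The untreated library alone gave 11.3 and the other library 7.08. Of the 123 neuronal UMIs 117 lay in *Slc32a1* neurons.

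Within the *Slc32a1* neurons, *Asic4* followed the peptide *Cck* (cholecystokinin). In the untreated library the 15 neurons with at least 1 *Cck* UMI had 228 CPM and the other 65 had 49.3 CPM, a ratio of 4.62 (2.6 to 8.25). In the 4OH-tamoxifen library the 45 neurons with it had 137 CPM and the other 249 had 35.1 CPM, a ratio of 3.9 (2.26 to 6.61). Both intervals lie above 1. *Sst* (somatostatin) went the other way, with 32.6 CPM in the 165 neurons that had it and 83.9 CPM in the 209 that did not, a ratio of 0.388 (0.246 to 0.597). The untreated library alone gave 0.139 (0.0486 to 0.326) and the 4OH-tamoxifen library 0.687 (0.394 to 1.17), and the second interval holds 1. Thinned to 2000 UMIs the *Sst* ratio was 0.693 (0.308 to 1.46). The 35 neurons with *Ndnf* (a secreted neurotrophic factor) had a ratio of 0.315 (0.1 to 0.756), of which the untreated cells alone gave 0.439 (0.0875 to 1.36) and the 4OH-tamoxifen cells 0.223 (0.0265 to 0.841). The 33 with *Pvalb* (a calcium-binding protein) had one of 0.676 (0.285 to 1.38). For *Pvalb* the libraries differed in direction, with 2.07 (0.723 to 4.85) from 3 untreated cells and 0.241 (0.0286 to 0.91) from 30 cells of the 4OH-tamoxifen library. *Cck* and *Sst* were found together in 3 cells, so these splits overlap little in the positive cells. Neurons with *Cck* and no *Sst* had 177 CPM of *Asic4* (132 to 234), those with neither 49.6 CPM (35.1 to 68.1) and those with *Sst* and no *Cck* 31 CPM (20.4 to 45.1), at medians of 4128, 4113.5 and 4622.5 UMIs. *Cck* was found in 2.4% of microglia against 16% of *Slc32a1* neurons, *Sst* in 1.67% against 44.1%, and *Pvalb* in 4.28% against 8.82%.

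**Figure D4:**
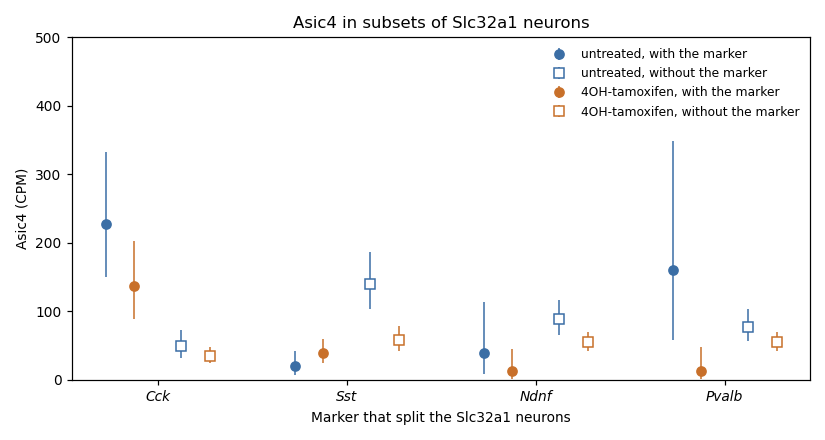
*Asic4* level (y axis, CPM) in *Slc32a1* neurons with (filled) and without (open) at least 1 UMI of the marker on the x axis, for each library; bars are exact Poisson 95% intervals. Neurons with *Cck* had 228 and 137 CPM, above the 49.3 and 35.1 CPM of those without it, and neurons with *Sst* had 19.4 and 39.6 CPM.

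*Asic1* and *Asic2* did not follow *Cck* in this way, with ratios of 0.918 (0.64 to 1.29) and 1.03 (0.773 to 1.36) over both libraries. In neurons with *Sst* *Asic1* had a ratio of 1.28 (1 to 1.63), with 1.5 (1.11 to 2.04) from the 4OH-tamoxifen library alone and 0.946 (0.623 to 1.43) from the untreated one. These intervals overlap, and the difference between the libraries was not tested. *Asic2* in *Slc17a6* neurons with *Th*, the enzyme that starts catecholamine synthesis, was at 332 CPM in 13 cells against 219 CPM in 73, a ratio of 1.51 (1.05 to 2.16). A single untreated neuron with *Th* held 18 of the 51 UMIs, and without it the ratio was 1.24 (0.806 to 1.87). The untreated library alone gave 1.85 (1 to 3.53) with that cell and 1.14 (0.499 to 2.49) without it, and the 4OH-tamoxifen library 1.48 (0.865 to 2.43). *Gpr4* in *Nmb* neurons with *Gal* (galanin) had a ratio of 2.07 (0.924 to 5.09), with 3.88 (0.89 to 35.1) in untreated cells and 1.38 (0.456 to 4.34) in 4OH-tamoxifen cells, and all 3 intervals hold 1. Of 29 such ratios of a member over both libraries that had at least 1 UMI, 6 had intervals that left out 1, against 7.09% over all genes in the same splits. Without the cell with most UMIs of the member 5 of the 6 still did, all but *Asic2* with *Th*. After thinning 2 of the 6 did, *Asic4* with *Cck* (4.43, 2.09 to 9.05) and *Gpr65* with *Mrc1* (18.5, 1.55 to 162, from 5 UMIs). The intervals cover counting error only and were not adjusted for their number. The 7.09% is over every gene with at least 1 UMI in a split and was not matched to the members' counts.

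The other genes of acid sensing formed a list of 18, of which 11 passed the filter on low counts. Of these, 3 passed only through neuron classes and are left out of the counts for neurons. Of the other 8, 5 were higher in neurons than in the other classes, against 26% of all genes, and 1 was lower, against 32.7%. Those higher were *Gnas* and *Gnaq*, the alpha subunits of Gs and Gq, by 0.80 and 0.83 on the log2 scale, *Kcnk3*, an acid-inhibited potassium channel, by 1.84, and *Stoml1* and *Pick1*, which encode partners of ASIC subunits, by 1.33 and 0.58. *Gna13*, the alpha subunit of G13, was lower (-2.02). The median of the 8 was 0.69, beside -0.22 over all genes tested.

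*Kcnk5* was at 61.9 and 41.5 CPM in *Nmb* neurons of the untreated and the 4OH-tamoxifen library (9 and 8 UMIs), and at most 5.37 CPM in any library of the other 9 classes. *Otop1*, which encodes a proton-selective channel, was at 41.2 and 41.5 CPM in *Nmb* neurons (6 and 8 UMIs, in 2 and 7 cells), and outside them it had 3 UMIs in astrocytes and 1 in *Slc32a1* neurons. *Kcnk5* and *Otop1* are 2 of the 11, and both passed the filter on low counts only through *Nmb* neurons, so their levels are given as a description with no test. *Gnas* was higher in *Nmb* neurons than in the other 3 neuron classes by 0.60 ± 0.149 (adjusted p = 0.00652), where 2.21% of all genes were higher and 2.22% lower, and this call was lost under 6 of the alternatives. No gene of the list was called lower in that contrast.

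The genes whose profiles over the 20 class and library sums were most like each member were named by Pearson's r of log2(CPM + 10), which describes these profiles and carries no test, since profiles of 1 library share its depth and free RNA. For *Gpr4* they were *Ece1* (the endothelin-converting enzyme, 0.917), *Tinagl1* (0.88), *Egflam* (0.867), *Ecm1* (0.845) and *Cracr2b* (0.838). For *Asic1* they were *Nova1*, *Pcsk1n*, *Gdap1l1*, *Pdzd4* and *Frrs1l*, from 0.97 to 0.962. *Asic2* was closest to *Dpp10* (0.979), followed by *Arhgdig*, *Gdap1*, *Clip4* and *Oprl1*. For *Asic4* they were *C1ql2* (0.898), *Adarb2* (0.883), *Bzw2* (0.837), *Bhlhe22* (0.828) and *Gad1* (a GABA-synthesising enzyme, 0.815). Between members, *Asic1* and *Asic2* had an r of 0.882, *Asic1* and *Asic4* 0.59 and *Asic2* and *Asic4* 0.432, while *Gpr4* had negative values with all 3, from -0.305 to -0.105.

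Between the 4OH-tamoxifen and the untreated library, 6 of the 40 ratios of a member in a class with at least 1 UMI had an interval that left out 1, against 11.4% over all genes and classes, and 5 of these 6 were *Asic2*. That 11.4% is over every gene with at least 1 UMI in a class and was not matched to the members' counts. For *Gpr4* the ratio was 0.963 (0.756 to 1.23) in *Cldn5* cells and 0.755 (0.354 to 1.61) in *Nmb* neurons. *Gpr65* in *C1qa* cells had a ratio of 1.47 (0.553 to 4.15). *Asic1* ratios ran from 0.647 to 1.52 in the 8 classes with at least 10 UMIs in both libraries, and every interval held 1. *Asic4* in *Slc32a1* neurons was lower with 4OH-tamoxifen, at a ratio of 0.603 (0.413 to 0.885). With each cell thinned to 2000 UMIs it was 0.863 (0.394 to 2.09), from 36 UMIs in all, and that interval holds 1.

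*Asic2* was higher in the 4OH-tamoxifen library in *Nmb* neurons, with a ratio of 2.48 (1.03 to 6.85), in *Chat* neurons with 1.96 (1.08 to 3.9), in *Aqp4* cells with 1.61 (1.18 to 2.22), in *Mog* cells with 3.48 (1.79 to 7.56) and in *Cldn5* cells with 3.47 (1.13 to 14.2). In *Slc17a6* and *Slc32a1* neurons the ratios were 1.03 (0.723 to 1.5) and 1.05 (0.846 to 1.31), and in *Pdgfra* cells 1.29 (0.888 to 1.9), and these 3 intervals held 1. The summed level of the neuronal genes *Snap25*, *Syp*, *Tubb3* and *Elavl2* in the non-neuronal classes moved the same way, from 285 to 531 CPM in *Aqp4* cells, 135 to 177 CPM in *Mog* cells, 147 to 300 CPM in *C1qa* cells, 120 to 258 CPM in *Cldn5* cells, 229 to 466 CPM in *Pdgfra* cells and 180 to 623 CPM in *Kcnj8* cells. At equal depth the ratios were 2.55 (1.57 to 4.3) in *Aqp4* cells and 8.72 (1.44 to 357) in *Mog* cells, whose intervals still left out 1. They were 6.22 (0.934 to 264) in *Nmb* neurons, 2.03 (0.629 to 10.4) in *Chat* neurons and 1.95 (0.32 to 20.5) in *Cldn5* cells. These last intervals held 1, on fewer counts. Single cells also weighed in the sums. Without the cell with most UMIs the ratio was 1.8 (0.989 to 3.59) in *Chat* neurons and 2.27 (0.671 to 9.76) in *Cldn5* cells, whose intervals then hold 1. It was 3.3 (1.23 to 11.1) in *Nmb* neurons, 1.79 (1.3 to 2.49) in *Aqp4* cells and 3.16 (1.62 to 6.89) in *Mog* cells, whose intervals still left out 1. Leaving out instead the untreated *Chat* neuron with 9 of 12 UMIs took that library's level from 110 to 35.2 CPM, which raises the *Chat* ratio. In the 4OH-tamoxifen library 1 *Cldn5* cell held 6 of the 17 UMIs of that class and 4 *Mog* cells held 19 of 74. The part of either in the *Asic2* ratios was not tested. With 1 library per condition these ratios compare the libraries and not the treatment.

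**Figure D5:**
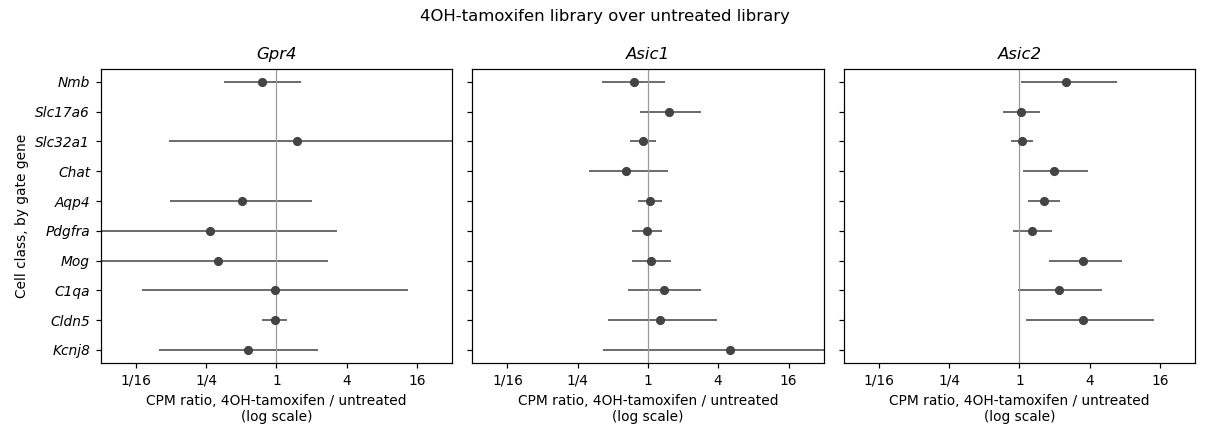
Ratio of CPM in the 4OH-tamoxifen library to that in the untreated library (x axis, log scale) for *Gpr4*, *Asic1* and *Asic2* in each class (y axis), with exact conditional 95% intervals as bars; classes with 0 UMIs in a library have no point, and bars that reach the edge go on beyond it. *Asic2* lies above 1 with its whole interval in *Nmb*, *Chat*, *Aqp4*, *Mog* and *Cldn5* classes.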

How the data were processed

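Per the methods of the study, the authors converted reads with bcl2fastq 2.18.0.12 and aligned and counted them with Cell Ranger 2.2.0 on the 10X mm10 reference (GRCm38). The deposited values are counts of UMIs per gene and barcode, without normalization and before cell filters. Here, cells with at least 800 genes, at most 50 hemoglobin UMIs and at most 20% mitochondrial UMIs were kept, after Scrublet (scanpy 1.11.5) marked 6 untreated and 544 4OH-tamoxifen barcodes as doublets. Neurons needed at least 2 of *Snap25*, *Syp*, *Tubb3* and *Elavl2*, 3 UMIs of them in all, and at most 1 UMI of each non-neuronal gate gene. *Nmb* needed at least 2 UMIs with no *Slc32a1* or *Chat*, the transmitter genes at least 1 without the others, and non-neuronal gates at least 2 in cells that were not neurons.

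Counts were summed per class and library and tested with edgeR 4.0.16 (TMM, filterByExpr, quasi-likelihood, R 4.3.3) at an adjusted p under 0.05 over 13095 genes. DESeq2 1.42.0 served as an alternative, and the fit was tested on simulated counts. With 1 library per condition, ratios were given with exact conditional intervals (scipy 1.17.1), which cover counting error only. The named genes were the members, related genes that were called and, for members with at least 100 UMIs, the 5 genes with the highest r. The members, gates and lists were chosen with earlier results of these data known, and 17 alternatives were set with them. Some genes of the lists are not reported here.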

Additional observations from a re-analysis of the deposited data

Results flagged for a closer look

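*Asic2* moved in opposite directions between the libraries when *Slc32a1* neurons were split by *Ndnf*, with a ratio of neurons with over those without of 0.183 (0.0372 to 0.547) in the untreated and 1.78 (1.29 to 2.42) in the 4OH-tamoxifen library. The former came from 3 UMIs in 8 cells and the latter from 53 UMIs in 27 cells, and the difference between the libraries was not tested.

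Cells that met no gate also held member transcripts. *Gpr4* was at 12.7 CPM in them, and 147 of its 186 UMIs there lay in cells with at least 1 *Cldn5* UMI. *Asic1* was at 43.9 CPM, *Asic2* at 30.8 CPM, *Asic4* at 7.52 CPM and *Gpr65* at 0.342 CPM, the last from 5 UMIs.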

How the results depend on the processing

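Of 405 values recomputed under the alternatives, 356 kept their direction and side of the threshold or stayed within their spread, 19 lost their call, 23 moved and 7 turned their sign. All 7 were *Asic4* in neurons against the other classes, which was not called at -0.23 and was 0.35 with 1 UMI gates, 0.03 with 3 UMI gates, 0.57 with DESeq2, 0.75 after thinning, 2.08 with Leiden clusters, 2.84 with neurons clustered again and 1.55 without the *Chat* class; the last 2 settings were added after seeing the data, as was leaving out the cell with most UMIs. The Leiden clusters gave 0 *Nmb* and 0 *Slc17a6* cells in both libraries. The value of 2.08 therefore sets only the *Slc32a1* and *Chat* clusters against the other classes. With each library alone, the gated *Asic4* difference ran from -0.46 to -0.35. Leaving out each library in turn gave 4.59 to 5.52 for *Gpr4* in *Nmb* neurons, 1.77 to 2.34 for *Asic1* and 2.70 to 4.30 for *Asic2* in neurons, and 28.8% to 54.5% for the share of *Nmb* neurons with *Gpr4*. That share was 5.41% at 2 or more UMIs and 23.5% after thinning. At most 10% mitochondrial UMIs gave 3.63 for *Gpr4* in *Nmb* neurons (not called), 855 genes called in *Nmb* neurons in place of 2652, and 4 calls of related genes in place of 7. Thinning gave 1244 genes called in *Nmb* neurons, 3 member calls among neuron classes in place of 6, 4 calls of related genes in place of 7, 2 intervals between libraries in place of 6 and 3 in subsets in place of 6, 2 of them among the 6, and the ratio of *Asic4* in *Slc32a1* neurons between libraries was among those whose interval then held 1; it leaves fewer counts. Comparisons of classes had the library as the replicate block, and no pairing of the conditions was possible because each has 1 library; without the block *Gpr4* in *Nmb* neurons was 4.86, and the calls of *Asic2* in *Nmb* neurons, *Asic1* in *Slc32a1* neurons and *Gnas* in *Nmb* neurons were lost. Other causes were not tested.

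DESeq2's size factors moved the median of all genes in *Nmb* neurons against the other classes from -0.21 to -0.04, and the split of calls from 1411 higher and 1241 lower to 1691 and 901. The split went from 290 and 291 to 377 and 228 in *Nmb* against other neurons, from 1139 and 218 to 580 and 318 in *Slc32a1* against other neurons, and from 998 and 491 to 1188 and 340 in *Kcnj8* cells. Depth limits *Gpr65* most, with 26 UMIs in all kept cells, and the smallest classes, where 3 UMIs decide a level.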
